A study of Mus musculus with 22 samples.

Results

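The RNA levels of 7 genes of the oligodendrocyte lineage, Olig1, Olig2, Sox10, Pdgfra, Cspg4, Cnp and Mbp, were followed in 22 libraries of cultured cortical neurons. These 7 of the 24490 gene entries in each deposited table were picked on measured values, for standing higher after 4 h of the virus carrying S40A than with the other viruses in both sets of 4 h libraries. Their 4 h levels are therefore given as a description with no test, and tests were made only on the 8 h libraries, which the choice did not use. The cells were E16.5 cortical neurons of C57BL/6 embryos with the genotype Creb1-/-, so every group, controls included, was labelled with that genotype. They had spent 7 days in vitro. All were silenced beforehand with 1 µM of the sodium channel blocker TTX and 100 µM of the NMDA receptor blocker D-AP5, and all were depolarized for 2 h with 55 mM KCl. A herpes simplex virus (HSV) supplied 1 of 5 proteins: GFP in the controls, the wild-type form of CREB (WT), CREB lacking its O-GlcNAc glycosylation site (S40A), CREB lacking its phosphorylation site (S133A) or CREB lacking both (S40A-S133A). The 4 h groups were GFP, WT and S40A with 2 libraries each. The 8 h groups were GFP, WT and S40A with 4 libraries each, and S133A and S40A-S133A with 2 each. The labels name neither the promoter of the virus nor the cells it entered, and do not say whether replicates were separate cultures, so the spread behind each p-value may be technical.

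Oligodendrocytes wrap axons in myelin, and in the developing cortex they arise from dividing precursors that appear from ventral and later from cortical progenitors. The transcription factors OLIG1, OLIG2 and SOX10 specify and maintain the lineage. Precursors carry the PDGF receptor alpha and the proteoglycan NG2, the products of Pdgfra and Cspg4, and divide in response to PDGF. On differentiation they lose both and accumulate the myelin proteins CNP and MBP. Cultures of embryonic cortex made for neurons usually contain some glia and progenitors. CREB, a transcription factor that binds the cAMP response element, is activated in neurons by calcium entry.

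Levels are in FPKM, fragments per kilobase of transcript relative to library size, scaled between libraries, and log2 differences were taken on scaled FPKM + 1, which understates the change of low genes. Numbers in the deposited file names divide the libraries into sets, called runs here, and no source used here says what those numbers record. Run A held replicate 1 and run B replicate 2 of each 4 h group. At 8 h, runs C1 and C2 of an earlier set held replicates 1 and 2 of GFP, WT and S40A. C1 and C2 were separated by replicate number only, so the file names do not pair their libraries. Runs D1 and D2 of a later set held their replicates 3 and 4 and both replicates, 1 and 2, of the S133A and S40A-S133A groups. Libraries rested on an estimated 16.3 to 30.8 M fragments (M for mega). Creb1, supplied by the CREB viruses, ranged from 9.56 to 15.7 scaled FPKM in the GFP libraries and from 234 to 2306 in the others. No label as GFP or as a CREB virus was contradicted, but the forms of CREB overlapped and these values cannot tell them apart. The GFP libraries held Creb1 values above 0 although their genotype is given as Creb1-/-. Which part of the gene was deleted is not stated in the labels, and a value for the whole gene does not check the genotype. Identical values were found in 0 pairs of libraries. The library least like all others was replicate 2 of GFP at 8 h. Its closest match reached a correlation of 0.86 over tested genes, where every other library reached 0.92 to 0.94 with its own. These correlations are across genes, which are not independent replicates.

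The members lie on separate chromosomes except for the neighbours Olig2 (chromosome 16, 91225550 to 91228677) and Olig1 (chromosome 16, 91269769 to 91271939), whose bodies are 41.1 kb apart. Sox10 lies on chromosome 15 at 79154913 to 79164490 and Pdgfra on chromosome 5 at 75152291 to 75198204. Cspg4 spans chromosome 9 from 56865104 to 56899870 and Cnp chromosome 11 from 100574939 to 100581739. These are the deposited gene positions, which match mm10. The promoter windows of Pdgfra and Olig2 are shown because CREB was the protein supplied, and its response element has known letters. They come from RefSeq (GRCm38.p6), from 250 bases before the start given for each promoter, on the plus strand. The RefSeq gene Pdgfra begins at 75151322, so its window lies within that gene, before a later start. Positions in that window are relative to the later start. The stretch printed for Olig2 stops before the first GENCODE exon, and capitals mark a match to the core of the response element.

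Pdgfra, chr5:75152001-75152250: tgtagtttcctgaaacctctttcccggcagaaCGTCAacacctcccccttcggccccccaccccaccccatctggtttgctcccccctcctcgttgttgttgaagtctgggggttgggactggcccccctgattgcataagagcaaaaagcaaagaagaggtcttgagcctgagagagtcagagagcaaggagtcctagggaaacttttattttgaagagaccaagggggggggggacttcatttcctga

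Olig2, chr16:91225300-91225456: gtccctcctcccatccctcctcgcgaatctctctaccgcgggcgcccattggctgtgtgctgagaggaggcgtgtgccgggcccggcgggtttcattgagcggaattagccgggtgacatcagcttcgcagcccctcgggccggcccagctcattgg

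The full element TGACGTCA and its core TGACG, which the full element contains, were searched on both strands in the windows of 250 bases before the start. Of 6 members searched, 4 (Olig2, Pdgfra, Cspg4 and Cnp) had an entry in the RefSeq promoter table used, and Mbp was not searched. The full element was in 0 of the 4 and the core in 1, Pdgfra, on the opposite strand as CGTCA from position -218. Among 32817 RefSeq promoters of the same length, 1.55% held the full element and 17.7% the core. These matches are letters in a window and not measured binding.

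At 4 h, 6 of the 7 members were higher in S40A than in GFP and than in WT in both runs, and Mbp was not. Mbp was higher than WT in both runs but lay at 7.59 scaled FPKM in S40A and 7.77 in GFP in run A, so the choice does not hold for it. The share of all 12080 tested genes that were higher than both controls in both runs was 7.84%. For 4 members, Olig1, Sox10, Pdgfra and Cnp, both S40A libraries lay above all 4 GFP and WT libraries, as they did for 1.36% of tested genes. Nothing is read from these counts, since the same libraries chose the members. Nearest to the boundary of the choice on the log2 scale were Mbp, just outside it at -0.03 from GFP in run A, and just inside it Cnp, at 0.04 from GFP in run A, and Cspg4, at 0.08 from WT in run B. The plot of all libraries shows the members one by one.

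**Figure D1:**
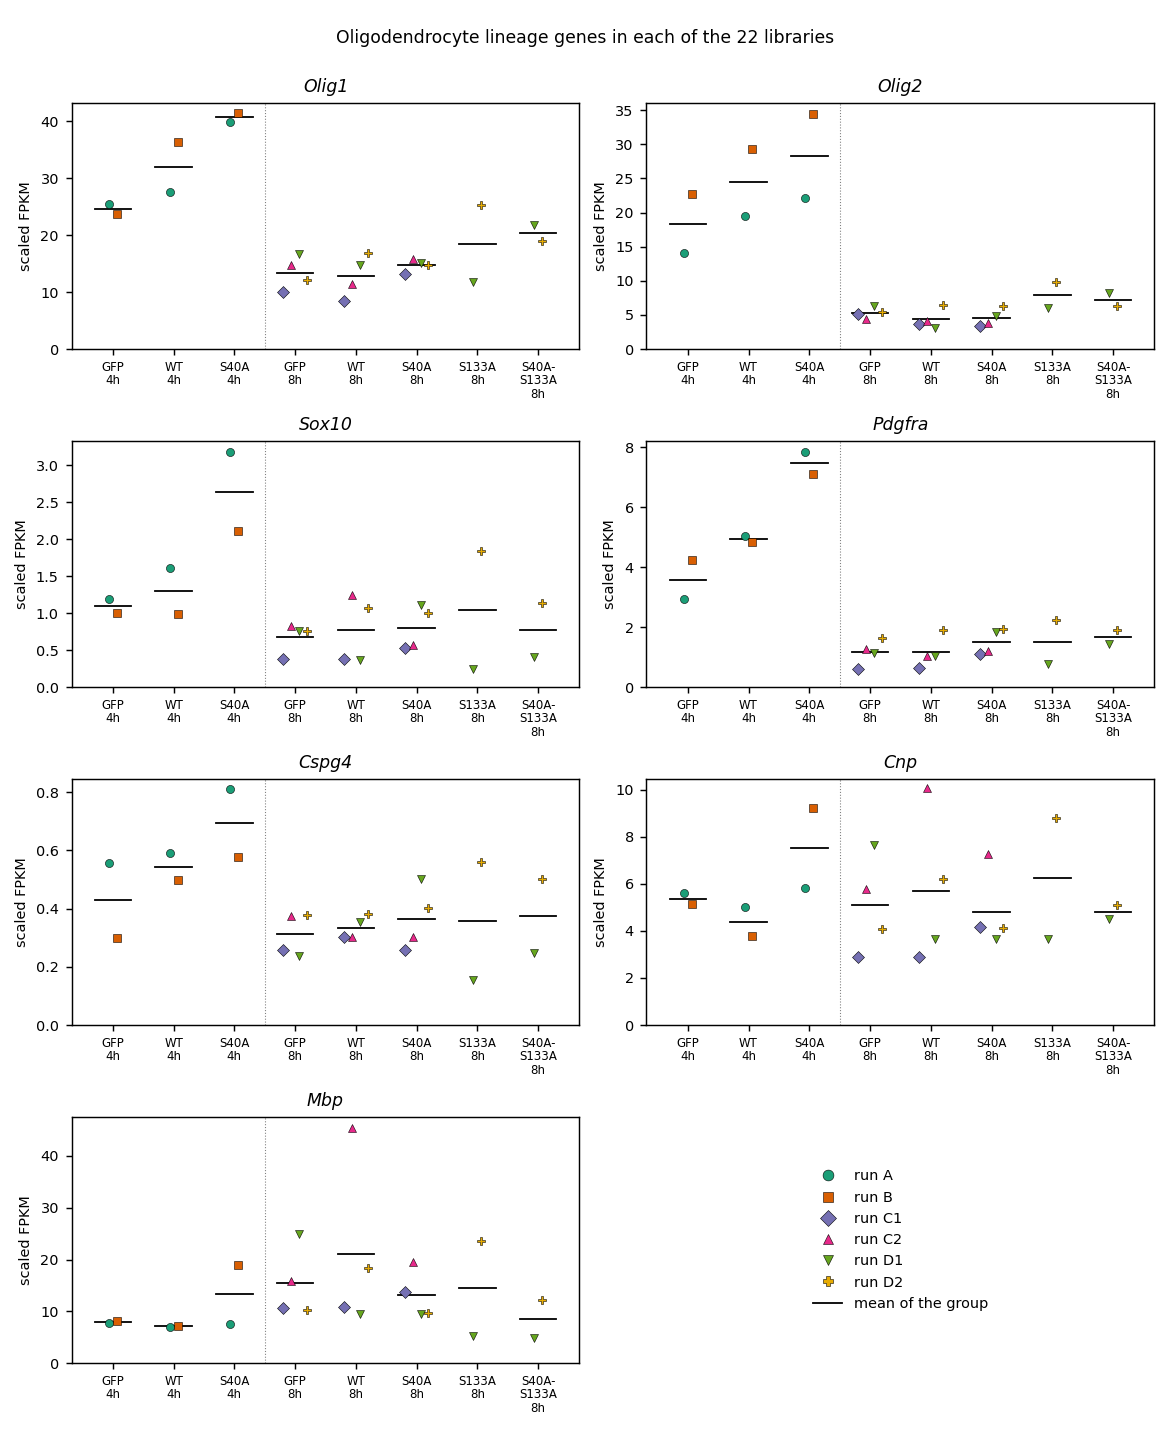
Level of each member in scaled FPKM (vertical axis, starting at 0) in the 22 libraries, by virus and hours (horizontal axis). Each point is a library, its shape and colour give the run, and black lines are group means. Olig1, Olig2 and Pdgfra stand higher at 4 h than at 8 h for GFP, and the 4 h S40A points of Sox10 and Pdgfra lie above every other library.

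Among the transcription factors, Olig1 stood at 25.5 and 23.7 scaled FPKM in the 4 h GFP libraries of runs A and B, at 27.5 and 36.4 in WT, and at 39.9 and 41.5 in S40A. The 3 groups were in the order GFP, WT, S40A in both runs and did not overlap. Olig2, which acts earliest in specifying the lineage, stood at 14.1 and 22.6 in GFP, 19.5 and 29.4 in WT, and 22.2 and 34.5 in S40A. The same order held within each run, but run B was higher throughout, and its GFP library lay above the S40A library of run A. Sox10, which switches on myelin genes, stood at 1.19 and 0.997 in GFP, 1.61 and 0.986 in WT, and 3.18 and 2.11 in S40A. Its S40A libraries were the highest, while GFP and WT overlapped. The log2 differences of S40A from GFP in runs A and B were 0.62 and 0.78 for Olig1, 0.62 and 0.59 for Olig2, and 0.93 and 0.64 for Sox10.

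Of the precursor surface genes, Pdgfra, the receptor through which PDGF drives precursor division, had the largest mean log2 difference from GFP of the 7 with 1 FPKM added. As plain ratios, Sox10 was 2.66 and 2.12 times GFP in runs A and B and Pdgfra 2.66 and 1.68 times. It stood at 2.95 and 4.22 scaled FPKM in GFP, 5.04 and 4.84 in WT, and 7.85 and 7.10 in S40A, with log2 differences from GFP of 1.16 and 0.63. Every WT library lay above every GFP library and below every S40A library. Cspg4 was low, at 0.557 and 0.299 in GFP, 0.590 and 0.498 in WT, and 0.812 and 0.579 in S40A. The S40A library of run B lay below the WT library of run A, so the groups overlapped.

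The myelin genes differed between the runs. Cnp, an early protein of myelinating cells, stood at 5.62 and 5.13 in GFP, 5.00 and 3.78 in WT, and 5.83 and 9.22 in S40A. Its log2 difference from GFP was 0.04 in run A and 0.74 in run B. Mbp (chromosome 18, 82475123 to 82585637, mm10), a major structural protein of compact myelin, stood at 7.77 and 8.10 in GFP, 6.95 and 7.17 in WT, and 7.59 and 19.0 in S40A, with differences of -0.03 and 1.14. For both genes the high value was the single S40A library of run B. In WT both myelin genes lay below GFP in both runs, and Olig1, Olig2, Pdgfra and Cspg4 lay above GFP in both. Cspg4 did so by only 0.03 on the log2 scale in run A. Sox10 divided, at 0.25 and -0.01 in runs A and B. The choice used these libraries and the share over all tested genes is not given, so nothing is read from these signs. The median of the 6 tested members was 0.62 and 0.69 for S40A minus GFP in runs A and B, and 0.35 and 0.56 for S40A minus WT. It was 0.18 and 0.08 for WT minus GFP. The median of all tested genes lay between -0.01 and 0.02 in these 6 comparisons, which share libraries.

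Levels of other genes of the lineage were read from a list of 37 genes, of which 18 passed the minimum mean of 1 scaled FPKM. In the 4 h libraries, 5 of the 18 (27.8%) were higher in S40A than in GFP and WT in both runs, with 7.84% for all tested genes. C1ql1 and Ugt8a, counted among them, reached the minimum only through their 4 h S40A values, and without those values in the minimum the count was 3 of 16. Nothing is read from this share. The 5 were Sox8, a partner of Sox10, and the precursor genes Pcdh15 and C1ql1. Bcas1 and Ugt8a, which mark newly formed oligodendrocytes, made up the rest. Bcas1 stood at 0.409 and 1.18 in GFP, 0.714 and 0.843 in WT, and 0.925 and 3.19 in S40A (runs A and B). Ugt8a, an enzyme of myelin lipid synthesis, stood at 0.927 and 2.03, at 1.13 and 1.91, and at 1.42 and 2.61 in the same order. Gpr17, a receptor of cells leaving the precursor state, stayed under the minimum. It stood at 0.0818 and 0.277 in GFP, 0.224 and 0.271 in WT, and 0.621 and 1.35 in S40A. Cldn11, a tight junction protein of myelin, was higher in S40A within run B, at 3.09 against 1.22 in GFP and 1.32 in WT. In run A it was not, at 0.354, 0.275 and 0.197 in GFP, WT and S40A. Mog, a surface protein of mature myelin, was lowest in S40A in both runs, at 2.38 against 2.99 in GFP and 2.42 in WT in run A, and at 1.67 against 1.97 and 1.88 in run B. The median S40A minus GFP difference of the 18 genes was 0.08 in run A and 0.15 in run B. Higher were 9 and 10 of the 18, beside 47.8% and 51.3% of all tested genes.

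A list of 26 ligands, receptors and mediators that act on the lineage had 23 tested genes. Of these, 2 (8.70%) were higher in S40A than in both controls in both runs at 4 h, Pdgfc, a PDGF ligand, and Id2, an inhibitor of differentiation factors. In run A the difference from GFP was largest for Hes1, a Notch target, at 1.21, and lowest for Shh, a ventral patterning signal, at -0.40. In run B it was largest for Pdgfc at 0.43 and lowest for Hes1 at -0.83, so Hes1 went opposite ways in the 2 runs.

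Markers of astrocytes, radial glia and dividing cells were higher in S40A than in GFP in run A, and neuronal markers in run B, as the plot of list medians shows. In run A, S40A was higher than GFP for 10 of 10 astrocyte markers (median log2 difference 0.98), 11 of 12 markers of radial glia and progenitors (0.79) and 12 of 12 of dividing cells (0.79). Pan-neuronal markers were higher for 0 of 10 (-0.18). In run B the counts were 0 of 10 for astrocytes (-0.29), 4 of 12 for radial glia (-0.17), 8 of 12 for dividing cells (0.03) and 10 of 10 for pan-neuronal markers (0.24). Markers of inhibitory neurons were higher for 3 of 12 in run A and 10 of 12 in run B, those of excitatory neurons for 3 and 9 of 12, and those of fibroblasts for 3 and 1 of 4. Among all tested genes, 47.8% were higher in run A and 51.3% in run B. The summed level of the 12 listed astrocyte genes was 96.2 in GFP, 209.9 in WT and 253 scaled FPKM in S40A in run A, and 169.7, 102.1 and 135.5 in run B. That of the radial glia genes was 356, 756 and 883 in run A and 397, 312 and 361 in run B. In run B the astrocyte and radial glia sums stood lower in S40A than in GFP, and in run A higher. Against WT, both sums were higher in S40A in both runs, by 1.21 and 1.33 times for astrocytes and 1.17 and 1.16 times for radial glia. The members' own summed level, which the choice used, was 1.51 and 1.75 times that of GFP and 1.32 and 1.37 times that of WT. In bulk RNA, more cells of a type and more RNA per cell cannot be told apart.

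**Figure D2:**
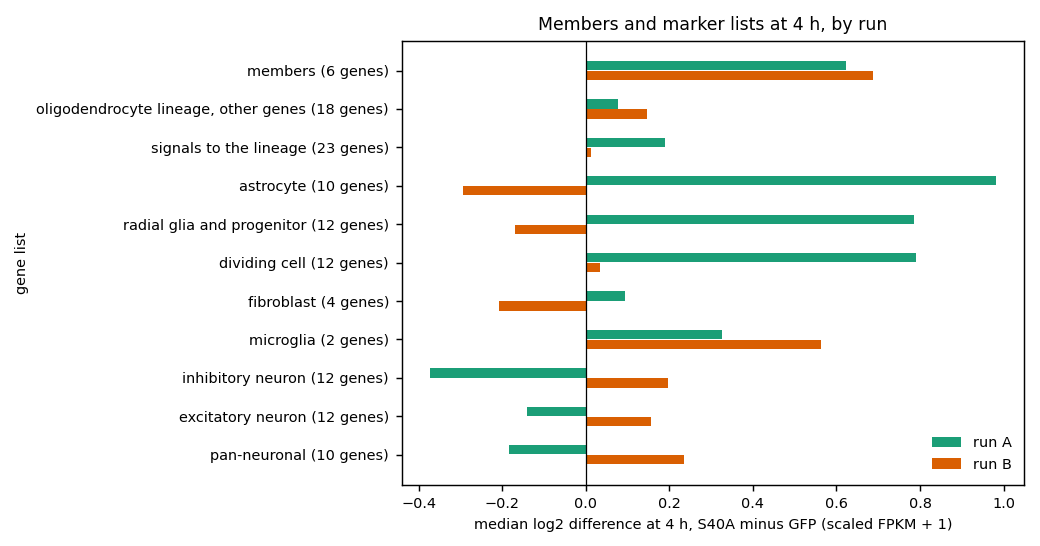
Median log2 difference of S40A minus GFP at 4 h (horizontal axis) for the members and each gene list with at least 2 tested genes (vertical axis), in run A and run B. The members stand at 0.62 and 0.69, and astrocyte markers at 0.98 in run A and -0.29 in run B. These libraries chose the members, so nothing is read from the contrast. Among the tested members, Sox10 passed the minimum only through its 4 h S40A values.

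Pdgfra and Cspg4 are also made by pericytes and fibroblast-like cells, so their markers were read. Of the mural markers, Kcnj8 was at 0 in 6 libraries and at most 0.113 scaled FPKM in any, and Pdgfrb and Rgs5 reached 1.42 and 1.36, both in the S40A library of run A. In run B the S40A library had 0.198 and 0.149 for these genes. The endothelial gene Cdh5 was at 0 in 8 libraries, and the microglial gene P2ry12 in 7. In S40A the summed mural list was 1.68 and 0.98 times GFP in runs A and B, and the fibroblast list 1.15 and 0.82 times. The summed endothelial list was 0.73 and 0.99 times GFP and the microglia list 1.13 and 1.37 times. What part any of these cells had in the members' differences was not tested.

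At 8 h, where the choice used no library, no difference of a member between S40A and GFP passed the test. Limma called 0 of the 6 tested members (Benjamini-Hochberg adjusted p under 0.05), against 1 of 12080 genes (0.00828%), Creb1. At an unadjusted p under 0.05 limma had 713 genes and 0 members. Cspg4, with a mean of 0.402 scaled FPKM, was not tested. Sox10, with a mean of 1.03, passed only through its 4 h S40A values, since its mean over the other 20 libraries was 0.870.

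Olig1 stood at 10.1, 14.8, 16.6 and 12.1 scaled FPKM in the GFP libraries of runs C1, C2, D1 and D2 and at 13.2, 15.9, 15.2 and 14.7 in S40A. The S40A values fell inside the GFP range, and the log2 difference was 0.15 (SE 0.22, adjusted p = 0.96, limma). Olig2 stood at 5.07, 4.44, 6.25 and 5.44 in GFP and at 3.37, 3.84, 4.77 and 6.29 in S40A. Its difference was -0.20 (SE 0.19, adjusted p = 0.93, limma), opposite in sign to that at 4 h, though neither the 8 h difference nor the contrast between times was called or tested. Sox10 stood at 0.385, 0.83, 0.754 and 0.755 in GFP and at 0.524, 0.565, 1.11 and 0.999 in S40A, with a difference of 0.09 (SE 0.26). Pdgfra stood at 0.608, 1.27, 1.15 and 1.64 in GFP and at 1.11, 1.19, 1.84 and 1.94 in S40A. It was higher in S40A in 3 of the 4 runs, and the difference was 0.22 (SE 0.19, 95% interval -0.19 to 0.64, adjusted p = 0.91, limma). That interval includes 0, and its upper end lies beside the 0.63 of run B at 4 h and below the 1.16 of run A. The 4 h values chose the members, so nothing is read from their place. Cspg4 lay between 0.236 and 0.379 in GFP and between 0.256 and 0.50 in S40A.

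On the log2 scale the 2 myelin genes had the largest standard errors of the 6 tested members for S40A minus GFP at 8 h. Cnp stood at 2.88, 5.80, 7.64 and 4.09 scaled FPKM in GFP and at 4.19, 7.26, 3.67 and 4.11 in S40A, with a log2 difference of -0.04 (SE 0.37). Mbp stood at 10.6, 15.8, 24.9 and 10.2 in GFP and at 13.6, 19.5, 9.45 and 9.65 in S40A, with a difference of -0.19 (SE 0.53). Both were higher in S40A in runs C1 and C2, whose libraries are matched by replicate number only. Matched the other way, S40A of C1 would lie below GFP of C2 for both genes. In D1 Mbp was lower by 1.31 and Cnp by 0.89 on the log2 scale. The 95% interval for Mbp ran from -1.36 to 0.97, the widest of the 6. The plot of within-run differences sets the 4 h and 8 h values of each member side by side.

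**Figure D3:**
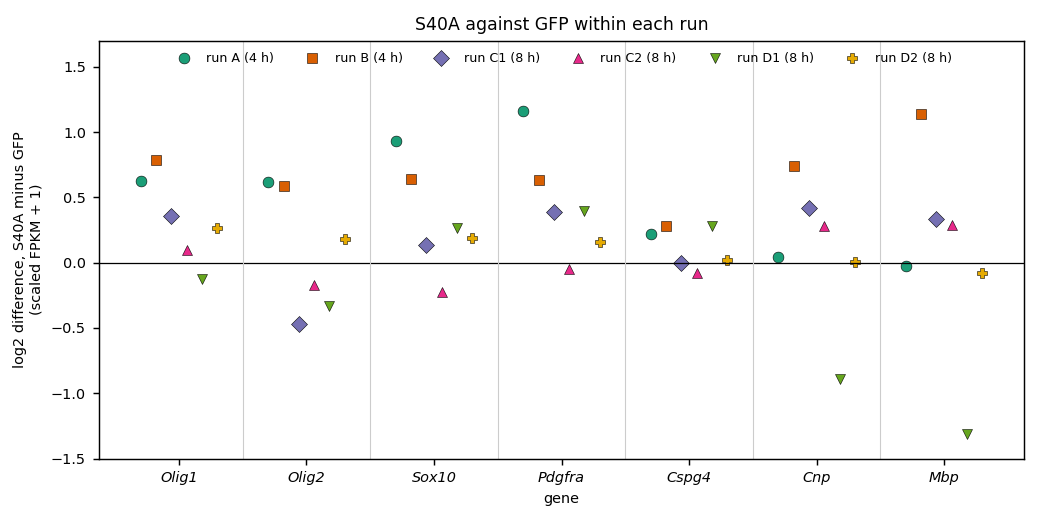
Log2 difference of S40A minus GFP on scaled FPKM + 1 (vertical axis) for each member (horizontal axis), within each of the 6 runs. Points of runs A and B are from 4 h and chose the members, and those of C1 to D2 are from 8 h. For Olig1, Olig2, Sox10 and Pdgfra both 4 h points lie above all 4 points from 8 h. The choice favoured high 4 h points, so nothing is read from this separation. Cnp and Mbp reach -0.89 and -1.31 in run D1.

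Against WT at 8 h, S40A likewise had 0 of 6 members called, with 0 of 12080 genes called (0%) and 497 genes, none of them a member, at an unadjusted p under 0.05 by limma. The log2 differences ran from -0.44 for Mbp to 0.24 for Pdgfra. WT stood at 8.40, 11.5, 14.8 and 16.8 for Olig1, at 3.72, 4.09, 3.12 and 6.49 for Olig2, and at 0.384, 1.25, 0.371 and 1.06 for Sox10 (C1, C2, D1, D2). Pdgfra stood at 0.647, 1.04, 1.03 and 1.89 in WT, and S40A was above WT for it in all 4 runs, by 0.02 to 0.49. This was the only member with 1 sign in all 4 runs, and its difference of 0.24 (SE 0.19) had an adjusted p of 1 by limma. For WT minus GFP the counts were 0 of 6 members and 1 of 12080 genes (0.00828%, Creb1), with 129 genes and 0 members at an unadjusted p under 0.05 by limma. The differences ran from -0.26 for Olig2 to 0.24 for Mbp.

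The median over the 6 tested members at 8 h was 0.02 for S40A minus GFP, 0.06 for S40A minus WT and 0.01 for WT minus GFP, beside 0.01, 0.00 and 0.00 for all tested genes. Without replicate 2 of GFP, the library that stood apart, the first was 0.10, with 0 members called by limma. These comparisons share libraries. Libraries of C1 and C2 were matched by replicate number only, so their values depend on that match. Within runs the members' median of S40A minus GFP was 0.34, 0.02, -0.23 and 0.17 in C1, C2, D1 and D2. Of the 7 members, 5, 3, 3 and 6 were higher. The shares of all tested genes higher in S40A were 48.9%, 51.7%, 51.0% and 49.9%. Summed astrocyte markers were 1.42, 1.20, 0.243 and 0.865 times GFP in S40A in those runs. Run D1 had the lowest members' median and the lowest astrocyte ratio, and the part of astrocyte RNA in the members' differences was not tested.

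**Figure D4:**
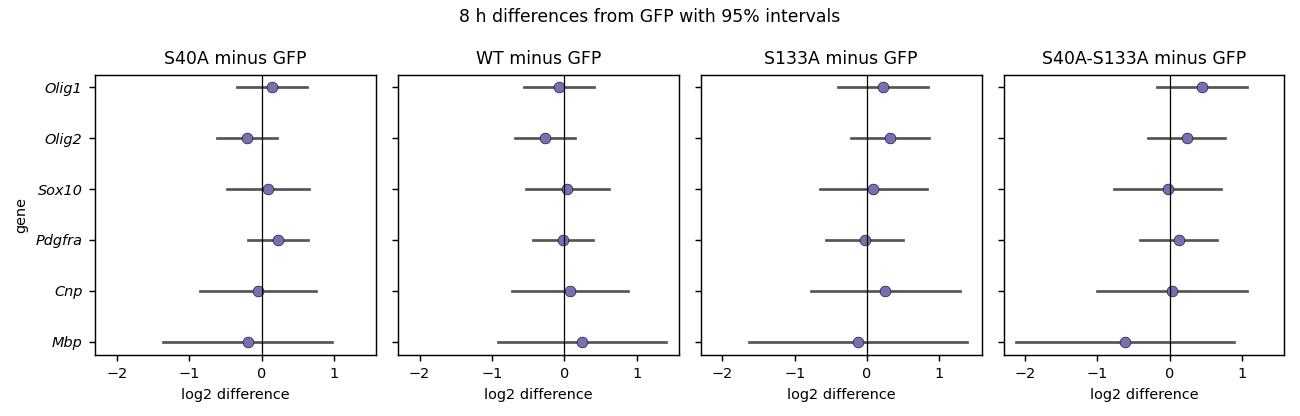
Log2 differences from GFP at 8 h (horizontal axis) for the 6 tested members (vertical axis), as points with 95% intervals from limma, in 1 panel for each CREB virus. Every interval includes 0, and those of Mbp are the widest.

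S133A and S40A-S133A had 2 libraries each, in runs D1 and D2. Limma called 0 of 6 members in each of their 4 comparisons. Called genes over all were 3 for S133A minus GFP (0.0248%), 2 for S40A-S133A minus GFP (0.0166%), 2 for S133A minus WT (0.0166%) and 3 for S40A-S133A minus S133A (0.0248%). At an unadjusted p under 0.05 limma had 287, 422, 168 and 42 genes, of which 1 was a member. That member was Olig2 in S133A minus WT, at 0.58 (SE 0.25, adjusted p = 1, limma; 0.26 without replicate 2 of S133A), with 5.96 and 9.82 scaled FPKM in S133A against 3.12 and 6.49 in WT in runs D1 and D2.

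The 2 S133A libraries stood apart at 8 h for the members. Replicate 2, in run D2, was the highest of all 16 libraries at 8 h for Olig1 (25.3 scaled FPKM), Olig2 (9.82), Sox10 (1.84), Pdgfra (2.22) and Cspg4 (0.562), the second for Cnp (8.82) and the third for Mbp (23.6). Replicate 1, in run D1, was the lowest of the 16 for Sox10 (0.238) and Cspg4 (0.155) and among the lowest 3 for Pdgfra (0.766) and Mbp (5.27). From the highest, it ranked 13 for Olig1 (11.7), 12 for Cnp (3.68) and 7 for Olig2 (5.96). Within runs, S133A was lower than GFP for 7 of 7 members in D1 (median of the tested -0.49) and higher for 7 of 7 in D2 (0.85). Over all tested genes, 54.8% were higher in D1 and 45.4% in D2. The same S133A libraries enter the comparison with the double mutant. S40A-S133A was higher than S133A for 6 of 7 members in D1 (0.33) and for 0 of 7 in D2 (-0.50), beside 43.4% and 53.1% of all tested genes. WT minus GFP also divided by run, with 1 of 7 higher in D1 (-0.58) and 7 of 7 in D2 (0.34). The shares of all tested genes higher in WT were 53.1% and 45.4%. Against GFP, the summed astrocyte and radial glia lists divided by run as the members did. The list of other lineage genes did not. It summed to 171.4 in replicate 1 and 174.8 in replicate 2 of S133A, against 158.9 and 130.7 in GFP of D1 and D2. The summed astrocyte list was 49.5 in replicate 1 and 199.7 in replicate 2 of S133A, against 183.3 and 86.0 in GFP of the same runs. The radial glia list was 169.2 and 300.6 against 251.7 and 185.3. Their part in the members' values was not tested, and no value for S133A here rests on more than these 2 libraries.

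Over the 16 libraries at 8 h, the correlation between members ranged widely from pair to pair. Pearson's r of log2 values, with permutation p-values from 100000 resamples adjusted over the 21 pairs, was highest for the 2 myelin genes. Cnp and Mbp had r = 0.82 (rho 0.77; adjusted permutation p = 0.00063 and 0.0066). Without the 2 libraries farthest from the median of Cnp r was 0.69, and with run means subtracted 0.85. It was 0.93 in the 6 libraries of the earlier set and 0.85 in the 10 of the later set. Sox10 and the precursor genes formed a second group. Sox10 had r = 0.80 with Cspg4 (rho 0.75) and 0.78 with Pdgfra (rho 0.75), and Pdgfra had 0.79 with Cspg4 (rho 0.75). These had adjusted permutation p-values of 0.0022, 0.0023 and 0.0023 for r and 0.0066 for each rho. Without the 2 farthest libraries these were 0.64, 0.69 and 0.73, and with run means subtracted 0.66, 0.64 and 0.65. In the earlier set they were 0.48, 0.58 and 0.50, and in the later set 0.86, 0.90 and 0.86.

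Olig1 varied most with Pdgfra (r = 0.75, rho 0.71, adjusted permutation p = 0.0037 and 0.012). Without the 2 farthest libraries r was 0.59, and with run means subtracted 0.65. It was 0.91 in the earlier set and 0.51 in the later. The neighbouring Olig1 and Olig2 had r = 0.65 (rho 0.58, adjusted permutation p = 0.02 and 0.052), which fell to 0.44 without the 2 farthest libraries and was -0.13 in the earlier set. Over all these libraries, Mbp had r = 0.08, -0.10 and 0.12 with Olig1, Olig2 and Pdgfra (adjusted permutation p = 0.78, 0.74 and 0.73). In the earlier set these were 0.30, -0.09 and 0.49, and in the later set 0.37, 0.23 and 0.43. With run means subtracted they were 0.17, 0.04 and 0.13. Sox10 had r = 0.65 with Cnp and 0.61 with Mbp, so it varied with both groups. All values in a library share its scaling, and the differences between these correlations were not tested. Differences between runs and virus groups enter the r and rho that carry p-values, and r with run means subtracted carries no p.

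**Figure D5:**
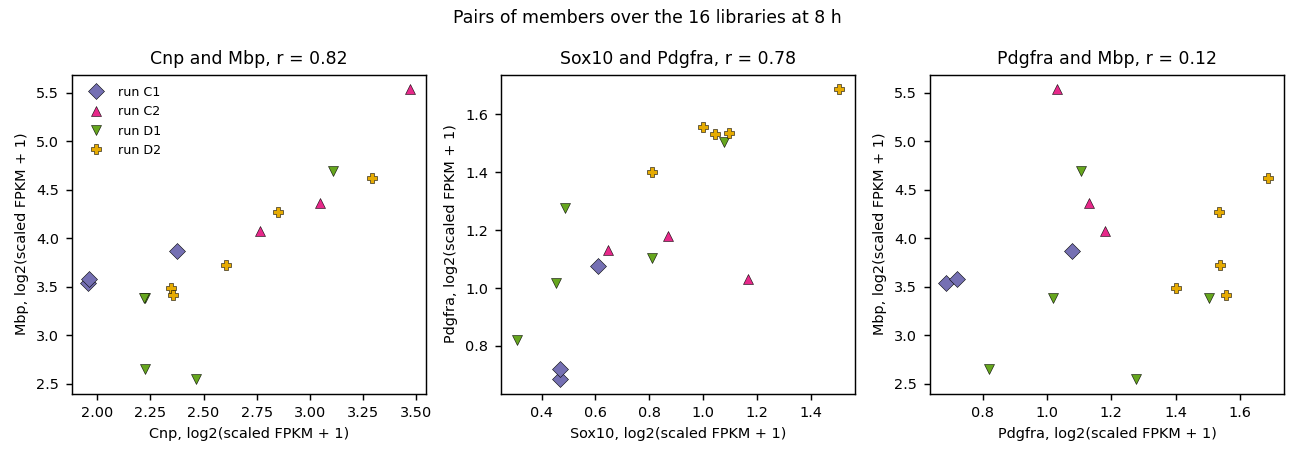
Levels of 3 pairs of members as log2(scaled FPKM + 1) on both axes in the 16 libraries at 8 h, with each point a library and its shape and colour the run. Cnp and Mbp (r = 0.82) and Sox10 and Pdgfra (r = 0.78) rise together. Pdgfra and Mbp have r = 0.12 over all 16, and 0.49 and 0.43 within the earlier and later sets. The highest Mbp value is at a low Pdgfra value.

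The highest values of the myelin genes were in 1 library, replicate 2 of WT at 8 h (run C2), with 45.5 scaled FPKM for Mbp and 10.1 for Cnp. The same library had 1.04 for Pdgfra and 4.09 for Olig2, inside the range of the other WT libraries. Its summed microglia list was 40.4, against 3.58 to 20.9 in the other 21 libraries. Without it the 8 h difference of S40A from WT was 0.00 for Mbp and 0.18 for Cnp, in place of -0.44 and -0.13, and 0 members were called by limma.

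Levels at the 2 times are given side by side, since hours and runs cannot be told apart. With GFP alone, Olig2 averaged 18.4 ± 6.07 at 4 h (SD, n = 2) and 5.30 ± 0.754 at 8 h (SD, n = 4), a ratio of 3.46. Pdgfra averaged 3.59 ± 0.901 and 1.17 ± 0.427, a ratio of 3.07. For these 2 genes all 6 libraries at 4 h lay above all 16 at 8 h, which was so for 4.32% of tested genes. The 4 h S40A libraries that chose the members are among those 6. Olig1 averaged 24.6 ± 1.29 and 13.4 ± 2.91 in GFP and Sox10 1.09 ± 0.138 and 0.681 ± 0.200, with no overlap of the GFP libraries for either. Mbp went the other way, at 7.93 ± 0.231 and 15.4 ± 6.85, again without overlap. Cnp, at 5.37 ± 0.347 and 5.10 ± 2.07, and Cspg4, at 0.428 ± 0.182 and 0.312 ± 0.0761, overlapped. The share of all tested genes whose GFP libraries did not overlap is not given here, so nothing is read from these separations. The GFP means were higher at 4 h for every member but Mbp, and hours and runs cannot be told apart.

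By level per transcript length, the order of the medians over the 6 libraries at 4 h was Olig1 (32.0 scaled FPKM), Olig2 (22.4), Mbp (7.68), Cnp (5.37), Pdgfra (4.94), Sox10 (1.40) and Cspg4 (0.568). At 8 h, over 16 libraries, it was Olig1 (14.8), Mbp (11.6), Olig2 (5.25), Cnp (4.35), Pdgfra (1.23), Sox10 (0.755) and Cspg4 (0.328). The ranges of neighbours in these orders overlapped, except those of Sox10 and Cspg4 at 4 h and of Cnp and Pdgfra at 8 h. The pan-neuronal markers Tubb3, a neuronal tubulin, and Map2, a dendritic protein, reached at least 252.9 and 102.2 in each of the 22 libraries, as the label of cortical neurons calls for, and all 7 members were above 0 in every library.

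The genes whose levels were most like the mean standardized level of the 6 tested members over the 22 libraries were Tns3, an adhesion adaptor (r = 0.91), Itgav, an integrin chain (0.88), and Lamc1, a laminin chain (0.88). Atp6v0e (0.87), Asrgl1 (0.86), Tnfrsf1a (0.85), C1ql1 (0.85), Ednrb, an endothelin receptor (0.85), Qk, an RNA-binding protein (0.82), and Tpp1 (0.82) followed. C1ql1 was the only one of these 10 in the lineage list. With run means subtracted the order was led by Ugt8a (0.86) and Bcas1 (0.83), both in the lineage list, then Tns3 (0.81), Atp6v0e (0.79), Gltp (0.79), Cd9 (0.78), Gng12 (0.77), Pmp22 (0.77), Prdx1 (0.77) and Tnfrsf1a (0.76). Tns3, Atp6v0e and Tnfrsf1a were in both sets of 10. These values describe libraries that include those used to choose the members, and they carry no p. C1ql1, Ugt8a and the member Sox10 passed the minimum only through their 4 h S40A values. Nothing is therefore read from the place of lineage genes in these orders.

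The other 18 tested genes of the lineage had 0 called by limma in all 7 comparisons at 8 h. Their median for S40A minus GFP was -0.09, with 6 of 18 higher, beside 6319 of all 12080 tested genes. Sox8, higher in S40A at 4 h, stood at -0.32 at 8 h (adjusted p = 0.88, limma). Of the 23 tested signalling genes 0 were called for S40A minus GFP, and the extremes were Igf1, a growth factor, at 0.44 and Fgfr3, a fibroblast growth factor receptor, at -0.41.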

How the data were processed

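RNA of 22 libraries had been sequenced by the authors, who deposited 1 table of FPKM values per library. Per the submitters' processing notes, CASAVA 1.7, Bowtie 0.12.2 and Cufflinks (no version) were used, and the builds mm8 and mm10 are named without a role. How reads matching several places and strand were handled is not stated in those notes or the labels, so overlapping or near-identical genes are uncertain.

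Groups came from the labels. The deposited FPKM values were scaled by median-of-ratios factors (0.863 to 1.12), 1 FPKM was added and log2 taken. Genes with a mean of at least 1 scaled FPKM and no failed estimate (23 entries failed) numbered 12080. Limma 3.58.1 in R 4.3.3 (trend, moderated two-sided tests, Benjamini-Hochberg over all genes, called at an adjusted p under 0.05) fitted the 16 libraries at 8 h with a term for the earlier or later set. It was tested on simulated data. Python 3.11.15 with numpy 2.4.6, pandas 2.3.3, scipy 1.17.1 and matplotlib 3.10.9 did the rest. Depth was estimated from the deposited FPKM intervals, which for Sox10 imply a median of 69.2 fragments per library and for Mbp 831. Symbols shared by several entries numbered 267.

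The members and gene lists were chosen with earlier results of these data known. Named genes were the 7 members, listed genes with counts, the extremes of the signalling list, defining markers, and the 10 genes most like the members. Gpr17 is a defining marker of the lineage list. Alternatives were other scalings, pseudocounts and filters, the run as a block, no set term, the later set alone, and each replicate left out.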

Additional observations from a re-analysis of the deposited data

Results flagged for a closer look

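Of the 21 groups of 4 libraries examined among the members at 8 h, 2 had a library far from the other 3 by Dixon's criterion, and chance flags about 1 in 20 groups. Sox10 in replicate 1 of GFP at 8 h stood at 0.385 scaled FPKM, against 0.754, 0.755 and 0.83 in the other 3. Cnp in replicate 2 of S40A at 8 h stood at 7.26, against 3.67, 4.11 and 4.19. Mbp was also highest in that S40A library, at 19.5, and its summed astrocyte list was 208.8, the highest of the 16 libraries at 8 h. The part of those cells in the Cnp value was not tested.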

How the results depend on the processing

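Over the 7 comparisons at 8 h and their alternatives, 109 values in all, the members called stayed at 0, with a smallest adjusted p of 0.56 by limma. The median of the members kept within the replicate spread in 106 of the 109. The exceptions all left out an S133A library. For S133A minus WT the median was 0.11, and ran from -0.40 without replicate 2 to 0.68 without replicate 1. For S40A-S133A minus S133A it was -0.10, and ran from -0.56 without S133A replicate 1 to 0.49 without S133A replicate 2. A lone remaining library was assumed to vary like the other groups. At 4 h the median for S40A minus WT was 0.58 over both runs and 0.35 with run A alone, and the S40A minus GFP difference of Mbp was -0.029 with run A alone.

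None of the 8 h values of single members was called, and 30 of 315 changed sign. For S40A minus GFP, leaving out single libraries gave -0.28 to 0.18 for Cnp and -0.42 to 0.16 for Mbp. For S40A minus WT it gave -0.11 to 0.22 for Sox10, -0.39 to 0.18 for Cnp and -0.12 to 0.20 for Olig2, and the later set alone gave -0.077 for Olig1. For WT minus GFP it gave -0.22 to 0.35 for Cnp, -0.13 to 0.20 for Sox10, -0.17 to 0.069 for Olig1, -0.19 to 0.60 for Mbp and -0.12 to 0.087 for Pdgfra. The later set alone gave -0.19 for Cnp, -0.061 for Sox10, 0.14 for Olig1, -0.26 for Mbp and 0.023 for Pdgfra. The cause was not tested.

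With the run as a replicate block the members called stayed at 0 in all 7 comparisons and the median for S40A minus GFP at 0.02. Residuals of libraries of the same run correlated from -0.04 to 0.05 in the earlier set and from 0.07 to 0.40 in the later one. The runs, which in the earlier set follow replicate number only, thus do not pair all the libraries. With 2 libraries a group at 4 h and for S133A, and 4 elsewhere, the number of libraries limits the precision. Sox10 and Cspg4 rest on the fewest fragments.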
